A study of Mus musculus with 16 samples.

Results

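The transcripts of 10 genes that write, erase or read DNA methylation were followed in memory CD4+ T cells from mice that lacked HP1α or HP1γ and from their littermates. The genes were taken by symbol from tables of 56748 genes: the methyltransferases Dnmt1, Dnmt3a and Dnmt3b, their partner Uhrf1, the oxidases Tet1, Tet2 and Tet3, and the methyl-CpG binding domain genes Mbd2, Mbd3 and Mbd4. All 10 passed the filter on low counts in each comparison.

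DNA methylation in mammals is mostly carried by the cytosine of the dinucleotide CpG. DNMT3A and DNMT3B place it on unmethylated DNA, UHRF1 recognises the half-methylated DNA left by replication and brings in DNMT1, which copies the mark to the new strand, and the TET enzymes oxidise it, which opens the way to its removal by base excision repair or by dilution. Through its tandem Tudor domain UHRF1 also binds trimethylated lysine 9 of histone H3, the mark that HP1 proteins bind. In CD4+ T cells DNMT3A is known for keeping the cytokine genes of other lineages silent, and TET2 and TET3 for the expression of cytokine genes and the stability of Foxp3.

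RNA-Seq covered 16 samples, 4 in each of 4 groups, from male mice of a mixed 129/Sv and C57BL/6 background, aged 6 to 12 weeks. Splenic cells had been sorted as CD4+ cells that were CD25low/- and CD44high. HP1α KO mice carried the floxed Hp1a allele after excision by CMV-cre, which acts in every tissue, and were compared with the WT littermates of that line. In the HP1γ line all mice had 2 floxed alleles and the KO alone carried Cd4-cre, which acts in T cells, so that effects of Cre and of HP1γ deficiency cannot be told apart. The targeted transcripts were lower in the KO group that their labels name than in its WT. Cbx5, which encodes HP1α, lay between 23.0 and 29.0 CPM in HP1α KO and between 33.8 and 54.0 CPM in the WT of that line (adjusted p = 0.946 by edgeR). In the HP1γ line Cbx5 lay between 20.1 and 29.8 CPM in KO and between 27.1 and 37.4 CPM in WT. Its level alone thus does not single out HP1α KO. Cbx3, which encodes HP1γ, lay between 45.9 and 50.3 CPM in HP1γ KO and between 73.4 and 92.5 CPM in the WT of that line. CPM are counts scaled to library size after TMM normalization over the 16 samples and serve to compare samples, whereas TPM, which correct for transcript length, serve to compare genes. Estimated counts summed to between 26694045 and 40199637 per sample, with a median of 32360727, and a value of 1 of the 10 genes in 1 sample rested on between 136 and 8910 counts. Nothing in the labels says that the 4 samples of a group came from separate mice, and p-values then measure only the spread between these samples.

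The sorted cells expressed the T cell markers Cd3e, Cd3d, Cd4, Cd28 and Cd44, with a summed level between 2409 and 2993 CPM per sample. The B cell markers (Cd79a, Cd79b, Ms4a1, Pax5 and Ighm) were also present, with summed levels between 261.8 and 731.9 CPM. Nearly all of this sum was Ighm, with group means from 297.3 to 487.7 CPM. Group means of the other B cell markers did not exceed 5.14 CPM. The erythroid genes (Hba-a1, Hbb-bs and Alas2) ranged from 10.3 to 737 CPM, with a median of 575 CPM in HP1γ KO and 171.7 CPM in the WT of that line. Sums over the myeloid, NK cell and CD8 T cell markers stayed between 29.5 and 118.6 CPM, between 30.2 and 56.1 CPM and between 5.09 and 18.5 CPM, and none of these markers was at 0 in a whole group. The naive and central memory markers Ccr7 and Lef1 summed to 267.0 to 529.2 CPM. The regulatory T cell markers (Foxp3, Il2ra and Ikzf2) summed to 191.3 to 385.1 CPM, in cells sorted as low for CD25, the product of Il2ra. In a bulk sample, fewer cells of a type and less RNA per cell cannot be told apart.

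The sequence these genes act on is the CpG dinucleotide, and their own promoters differed in how many they hold. In windows from 250 bases before to 50 bases after the start of the canonical transcript (GENCODE annotation of GRCm39), the median over 21603 protein-coding genes was 11 CpG, and 8 of the 10 genes held more. Dnmt3a and Tet3 held 46 each, a number that 1.0% of all promoters reached. Mbd4 held 23, Dnmt3b 22, Tet2 and Mbd3 20 each, Mbd2 15, Dnmt1 12, Uhrf1 10 and Tet1 5. Methylation itself was not measured in these files. The windows of Dnmt1, which passed the adjusted threshold in 1 comparison, and of Uhrf1, Tet2 and Mbd3, which did not pass it in any and are described closely next, are shown 5′ to 3′ on the strand of the gene, with each CpG in capitals; the 4 genes were chosen after their values were seen. They lie at chr17:56610025-56610324 on the plus strand for Uhrf1, and on the minus strand at chr9:20864226-20864525 for Dnmt1, at chr3:133250712-133251011 for Tet2 and at chr10:80235348-80235647 for Mbd3. The first 150 bases hold 1 CpG and the last 150 hold 9 in Uhrf1, and these numbers are 2 and 10 in Dnmt1, 8 and 12 in Tet2 and 9 and 11 in Mbd3.
Uhrf1: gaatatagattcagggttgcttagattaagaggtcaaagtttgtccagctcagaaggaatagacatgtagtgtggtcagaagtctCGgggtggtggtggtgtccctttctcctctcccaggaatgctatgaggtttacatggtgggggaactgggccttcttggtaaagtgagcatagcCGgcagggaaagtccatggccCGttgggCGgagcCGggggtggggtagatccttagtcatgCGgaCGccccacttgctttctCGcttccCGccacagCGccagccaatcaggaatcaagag
Dnmt1: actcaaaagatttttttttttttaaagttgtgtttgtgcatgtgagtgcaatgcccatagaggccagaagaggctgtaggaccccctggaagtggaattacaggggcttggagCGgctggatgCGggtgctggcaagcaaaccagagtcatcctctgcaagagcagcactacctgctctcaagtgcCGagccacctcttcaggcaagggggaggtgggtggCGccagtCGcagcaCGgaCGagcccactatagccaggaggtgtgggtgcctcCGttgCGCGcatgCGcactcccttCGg
Tet2: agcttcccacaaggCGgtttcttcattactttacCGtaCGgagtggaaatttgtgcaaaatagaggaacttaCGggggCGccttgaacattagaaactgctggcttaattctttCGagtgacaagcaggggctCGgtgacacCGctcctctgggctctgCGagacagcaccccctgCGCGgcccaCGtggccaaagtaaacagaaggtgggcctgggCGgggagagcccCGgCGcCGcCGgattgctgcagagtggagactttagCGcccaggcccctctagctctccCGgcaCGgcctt
Mbd3: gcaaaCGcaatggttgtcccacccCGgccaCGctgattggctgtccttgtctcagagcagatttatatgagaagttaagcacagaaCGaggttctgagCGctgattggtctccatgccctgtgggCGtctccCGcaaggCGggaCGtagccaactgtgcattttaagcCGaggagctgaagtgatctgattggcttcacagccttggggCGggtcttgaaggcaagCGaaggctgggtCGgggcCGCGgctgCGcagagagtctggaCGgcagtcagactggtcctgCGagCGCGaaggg

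The 10 genes differed widely in level. By mean TPM over the 16 samples, the readers Mbd2 (235.0 TPM, range 194.6 to 282.0) and Mbd3 (92.9 TPM, range 70.1 to 108.7) stood at the top. The enzymes Dnmt3a (47.3 TPM), Dnmt1 (46.5 TPM), Tet2 (38.4 TPM) and Tet3 (31.0 TPM) followed with overlapping ranges. Uhrf1 had 15.9 TPM (range 11.0 to 25.8), and at the bottom were Dnmt3b (6.01 TPM), Tet1 (3.30 TPM) and the repair glycosylase Mbd4 (2.88 TPM). The ranges over the 16 samples were apart from those of the next gene after Mbd2, after Mbd3 and after Uhrf1; Tet3 was above Uhrf1 within each of the 16 samples although their ranges are not clear of each other. In both pairs of paralogues, 1 gene dominated: Mbd2 exceeded Mbd3 by 2.29 to 2.78 times in the 16 samples, and the main de novo enzyme of these cells by transcript level was Dnmt3a rather than Dnmt3b.

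**Figure D1:**
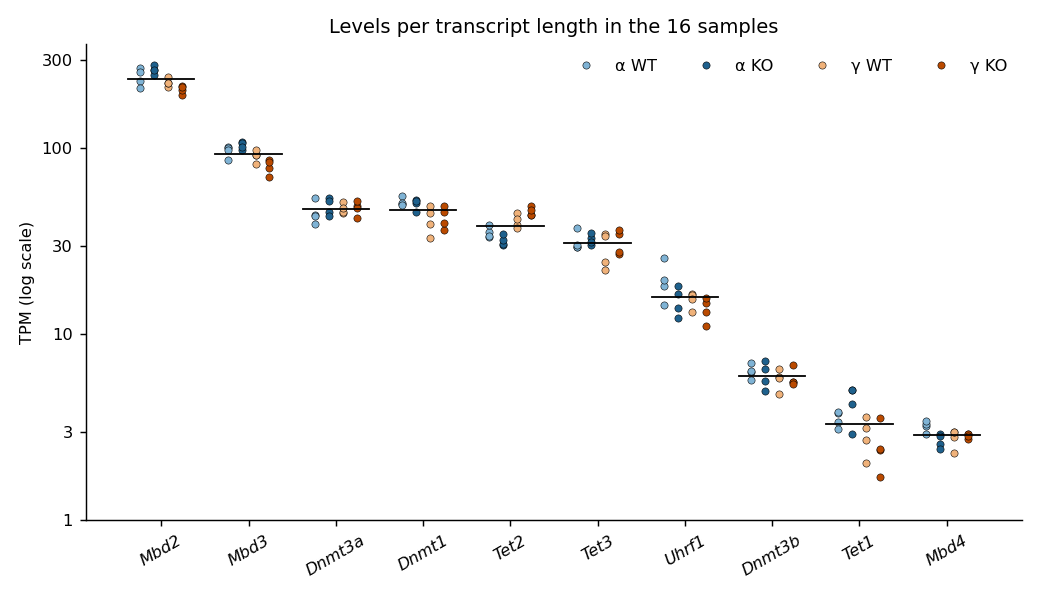
TPM (log scale) of the 10 genes, ordered by their mean over the 16 samples (black line), with 1 point per sample coloured by line (α or γ) and genotype. Mbd2 lies above 194 TPM in every sample, and Tet1 and Mbd4 lie at or below 5.03 TPM.

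The order of neighbours depended on the mouse line. Dnmt3a had a higher TPM than Dnmt1 in 3 of 8 samples of the HP1α line and in 7 of 8 samples of the HP1γ line. Tet2 exceeded Tet3 in 6 of 8 samples of the HP1α line, with a median ratio of 1.03, and in 8 of 8 samples of the HP1γ line, with a median ratio of 1.41. Tet1 was above Mbd4 in 7 of 8 and in 3 of 8 samples. These counts pool KO and WT of a line and are given as a description.

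Loss of HP1α left 0 of the 10 genes past an adjusted p of 0.05 (edgeR, p-values adjusted by Benjamini and Hochberg over all genes), and 0 of 10 had an unadjusted p under 0.05 (DESeq2: 0 adjusted, 1 unadjusted). The background by edgeR was the same: 0% of 14881 genes passed the adjusted threshold and 4.27% the unadjusted one. Over 9 alternatives without a sample left out, DESeq2 among them, 549 to 1063 of the genes each tested passed the unadjusted one. Of the 10 genes, 5 were higher and 5 lower in HP1α KO, and their log2 fold changes ran from -0.32 to 0.08 with a median of 0.00, beside 0.00 over all genes tested. Loss of HP1γ also left 0 of 10 genes past the adjusted threshold, against 0.327% of 14975 genes. By edgeR 3 of 10 had an unadjusted p under 0.05, against 11.9% of all genes. These were Tet2, with a higher level, and Mbd2 and Mbd3, with lower ones. With DESeq2 0 passed the adjusted threshold and 4 the unadjusted one. Over the same 9 alternatives, DESeq2 among them, 1498 to 2462 of the genes each tested passed the unadjusted one. In HP1γ KO 8 of the 10 genes were lower, at a median log2 fold change of -0.06. Over all 14975 genes tested 7469 were lower, at a median of 0.00. Between the WT groups of the lines, 1 of 10 genes passed the adjusted threshold, against 12.8% of 14804 genes, and 2 of 10 the unadjusted one, against 29.9%. That gene was Dnmt1, and 8 of 10 were higher in the WT of the HP1α line (median log2 difference 0.12, beside 0.02 over all genes).

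**Figure D2:**
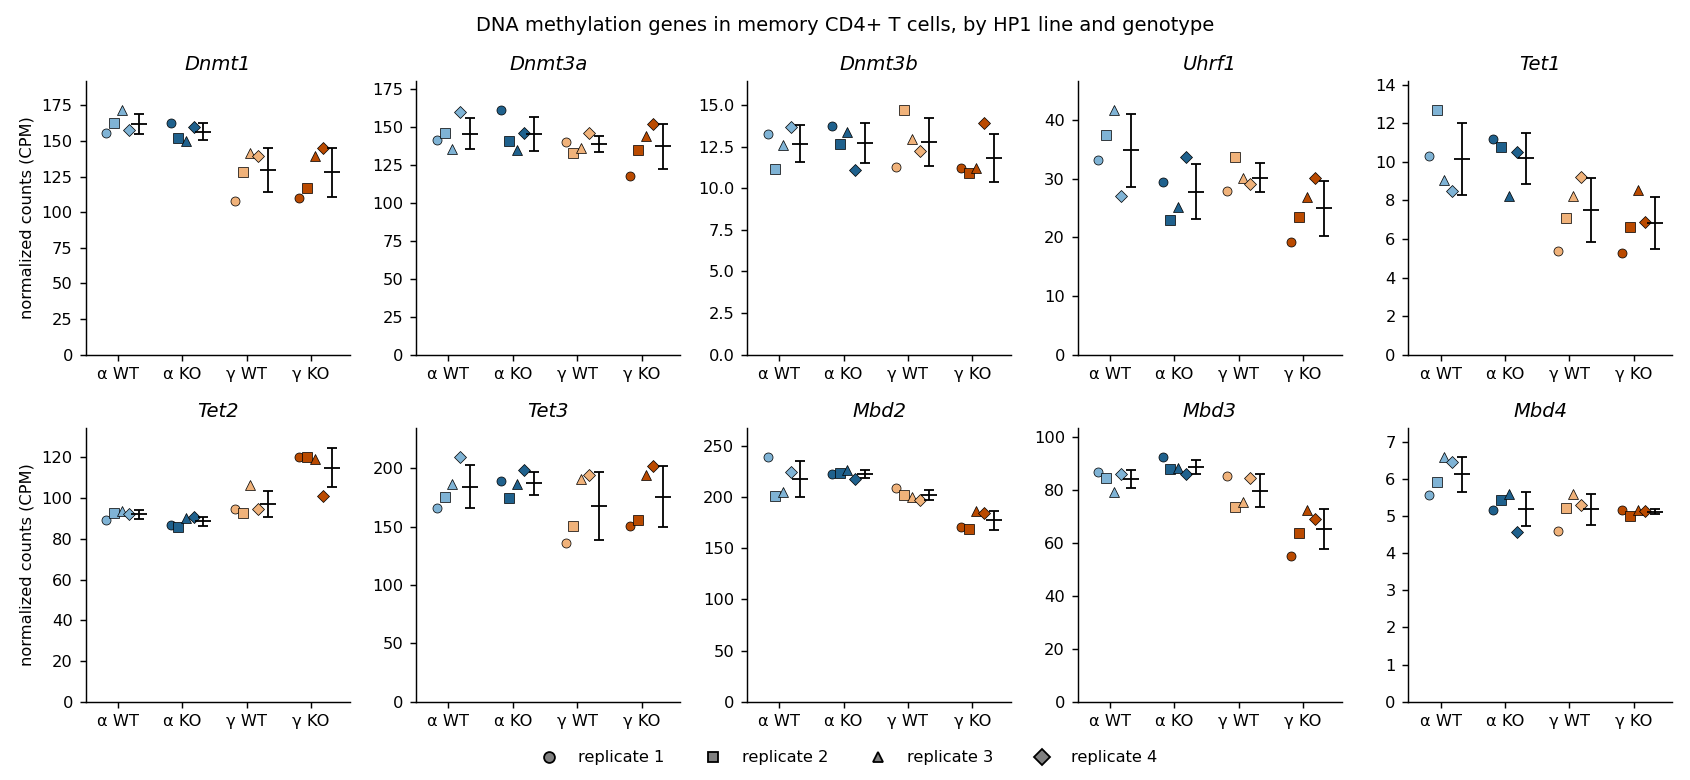
CPM of each gene in the 16 samples, by line (α or γ) and genotype, with the replicate number as the symbol and the mean ± SD (n = 4) to the right of each group. Dnmt1 lies above 150 CPM in the 8 samples of the HP1α line and below 145 CPM in the 8 samples of the HP1γ line. Such a separation was not counted over all genes. By group mean, Tet2 is highest in HP1γ KO, and Mbd2 and Mbd3 are lowest there.

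Dnmt1 (ENSMUSG00000004099, chromosome 9 of GRCm39, 20817945 to 20871184, minus strand), the maintenance methyltransferase, was higher in the WT of the HP1α line than in that of the HP1γ line, and passed no test between KO and WT. The 4 HP1α KO samples had 162.8, 152.4, 150.3 and 159.9 CPM and the 4 WT samples of that line 155.8, 162.8, 171.5 and 157.4 CPM. In the HP1γ line the KO samples had 110.0, 117.2, 139.7 and 144.7 CPM and the WT samples 107.8, 128.4, 141.5 and 139.7 CPM. KO and WT overlapped within each line, whereas the lowest sample of the HP1α line exceeded the highest of the HP1γ line. How many of all genes part the lines in this way was not counted. Within the HP1γ line the samples numbered 1 and 2 were below those numbered 3 and 4 in both genotypes. Over all genes, too, WT samples of that line differed less within these pairs (chi-square per gene 14.3 and 13.7) than across them (32.6 to 41.0), and the labels name no batch.

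The WT means were 161.9 ± 7.06 CPM (SD, n = 4) in the HP1α line and 129.3 ± 15.5 CPM (SD, n = 4) in the HP1γ line. The log2 difference was 0.32 (standard error 0.0893, adjusted p = 0.0415 by edgeR with Benjamini-Hochberg adjustment), and the WT groups did not overlap, as was so for 19.5% of the 14804 genes (p = 0.0286 in a two-sided exact permutation test, which cannot go lower with 4 samples a group). The adjusted p ranged from 0.00856 to 0.110 over 17 alternatives and stayed under 0.05 in 8 of them, and leaving out any 1 of the 4 WT samples of the HP1α line or of replicates 1 and 2 of the HP1γ line ended the call (adjusted p between 0.0696 and 0.0987). Without replicate 1 of the HP1γ WT, the sample of lowest Dnmt1, the log2 difference was 0.24. The B cell markers were higher in the WT of the HP1α line in 5 of 5 (median log2 difference 0.34), and lower there were the naive and central memory markers Ccr7 and Lef1 (2 of 2, median -0.34), the CD8 T cell markers Cd8a and Cd8b1 (2 of 2, median -0.72) and the erythroid genes (3 of 3, median -0.84), with 0 past the adjusted threshold in each list. Their part in this value was not tested; line, breeding and handling cannot be told apart here. Between KO and WT, the log2 fold change of Dnmt1 on loss of HP1α was -0.05 (95% interval -0.17 to 0.07) and on loss of HP1γ -0.01 (95% interval -0.26 to 0.24).

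Uhrf1 (ENSMUSG00000001228, chromosome 17, 56610275 to 56630489, plus strand), the partner that targets DNMT1 to replicated DNA, was the gene with the most negative value on loss of HP1α. It had 29.4, 23.0, 25.1 and 33.7 CPM in HP1α KO and 33.2, 37.4, 41.7 and 27.1 CPM in the WT littermates. The groups overlapped, with WT replicates 1 and 4 and KO replicates 1 and 4 in the shared range. In HP1γ KO it had 19.2, 23.5, 26.8 and 30.2 CPM, and in the WT of that line 27.8, 33.7, 30.1 and 29.1 CPM. Here 3 of 4 KO samples were below every WT sample and 1 was not.

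The log2 fold change of Uhrf1 was -0.32 in HP1α KO (standard error 0.146, unadjusted p = 0.0507, adjusted p = 0.946 by edgeR with Benjamini-Hochberg adjustment) and -0.27 in HP1γ KO (standard error 0.128, unadjusted p = 0.0650, adjusted p = 0.450). Neither passed the threshold. The difference between the knockout effects was -0.05 (95% interval -0.49 to 0.39), an interval that holds 0 and effects of either sign. Among the alternatives, the value lay between -0.43 and -0.23 in HP1α KO and between -0.37 and -0.16 in HP1γ KO, and none was past an adjusted p of 0.05. The Uhrf1 transcript shares up to 1590 nt at 98% identity or more with Gm5648, which was listed with 0 to 6 estimated counts per sample, whereas no other of the 10 genes shared 150 nt with another gene.

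Levels of Uhrf1 went with those of genes used in cell division. Among 9744 genes, the 3 whose deviations from their group means were most like those of Uhrf1 over the 16 samples were Kif15 (r = 0.96), Tpx2 (r = 0.96) and Top2a (r = 0.95), which encode a spindle motor, a spindle assembly factor and DNA topoisomerase IIα. For Dnmt1, the likest were Tap1 (r = 0.92), Pidd1 (r = 0.91) and Fcho1 (r = 0.90), and its correlation with Uhrf1 was 0.64. The points of these correlations share libraries and depth, and they are given as a description. A list of 21 S phase and division genes summed to 1018 to 1279 CPM in HP1α KO and to 1126 to 1501 CPM in its WT, and to 1206 to 1280 CPM in HP1γ KO and to 1258 to 1517 CPM in its WT. In HP1α KO 20 of its 21 genes were lower, with a median log2 fold change of -0.20, and in HP1γ KO 18 of 21, with a median of -0.12, beside medians of 0.00 over all genes. By edgeR, 0 of 21 passed the adjusted threshold in either knockout, and 1 (Birc5, lower) and 5 (4 lower, and Cdt1 higher) passed the unadjusted one (their background is 4.27% and 11.9%). The part of dividing cells in the values of Uhrf1 was not tested. In HP1α KO the B cell markers were higher in 5 of 5 (median log2 fold change 0.42) and the CD8 T cell markers in 2 of 2 (0.84). So were the myeloid markers in 4 of 5 (0.18) and the naive and central memory markers in 2 of 2 (0.20). The erythroid genes had lower fitted values in 3 of 3 (-0.64). Their summed level was 20.5 to 113.7 CPM in KO and 21.1, 10.3, 327.9 and 41.9 CPM in WT. Only WT replicate 3 was above the range of the KO. By median the erythroid sum was higher in KO (65.6 CPM) than in WT (31.5 CPM). In each of these lists 0 genes passed the adjusted threshold. The part of these marker lists in the HP1α KO values of Uhrf1 and Mbd4 was not tested.

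**Figure D3:**
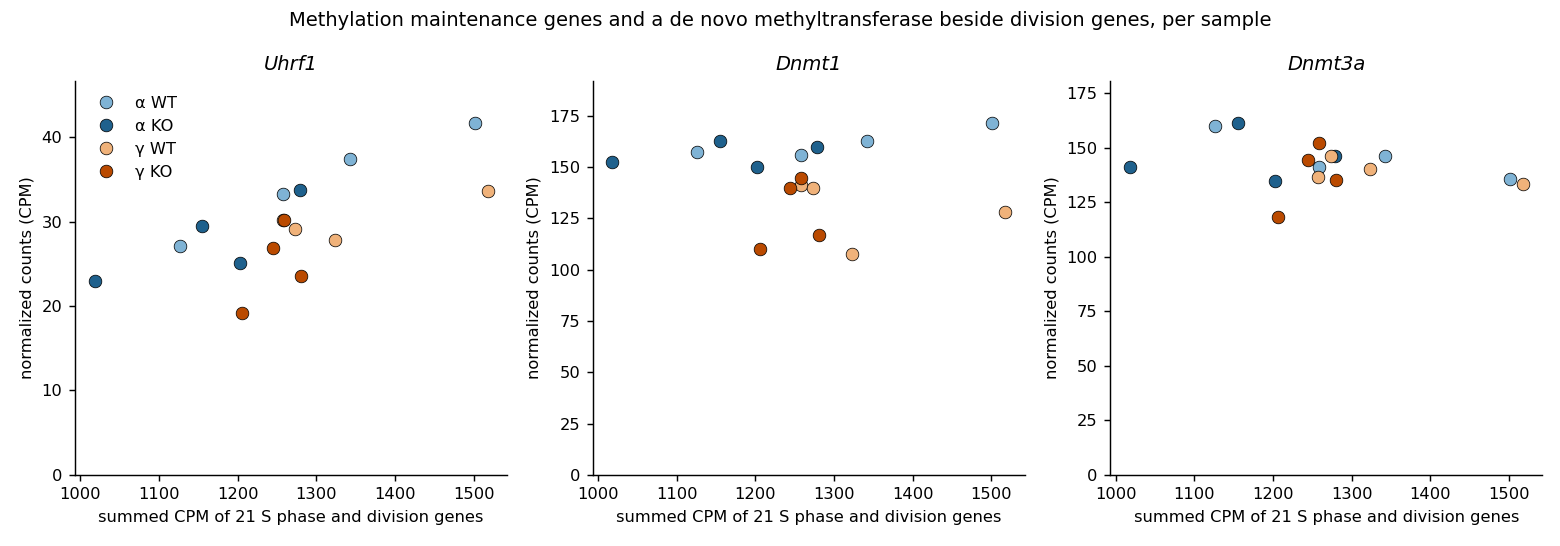
CPM of Uhrf1, Dnmt1 and Dnmt3a against the summed CPM of the 21 S phase and division genes, with 1 point per sample coloured by line (α or γ) and genotype. The WT sample of the HP1α line with a sum of 1501 CPM has the highest Uhrf1 (41.7 CPM), and the HP1α KO sample with a sum of 1018 CPM is among the lowest (23.0 CPM). Other samples depart from this order. The highest sum, 1517 CPM in a WT sample of the HP1γ line, goes with 33.7 CPM of Uhrf1. The lowest Uhrf1, 19.2 CPM in an HP1γ KO sample, goes with a sum of 1206 CPM. Dnmt3a lies between 118 and 161 CPM.

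The de novo enzymes passed no test between groups. Dnmt3a (ENSMUSG00000020661, chromosome 12, 3856007 to 3964443, plus strand) lay between 134.9 and 161.2 CPM in HP1α KO and between 135.8 and 160.1 CPM in its WT. In HP1γ KO it lay between 118.1 and 152.3 CPM and in its WT between 133.4 and 146.0 CPM. The log2 fold changes were -0.00 (95% interval -0.16 to 0.16) and -0.01 (95% interval -0.18 to 0.17). Dnmt3b (ENSMUSG00000027478, chromosome 2, 153490861 to 153529650, plus strand) lay between 10.9 and 14.7 CPM in all 16 samples, and its log2 fold changes were 0.00 (95% interval -0.22 to 0.23) in HP1α KO and -0.11 (95% interval -0.37 to 0.16) in HP1γ KO. Dnmt3l, a catalytically inactive partner of these enzymes in germ cells, was at 0 counts in all 16 samples.

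Tet2 (ENSMUSG00000040943, chromosome 3, 133169436 to 133250900, minus strand) was the gene with the highest log2 fold change on loss of HP1γ. By mean TPM over the 16 samples it was the first of the oxidases, although in HP1α KO the mean of Tet3 was higher (32.4 against 31.9 TPM). The HP1γ KO samples had 120.0, 120.0, 119.3 and 101.0 CPM and their WT 94.4, 92.8, 106.4 and 94.9 CPM. KO replicates 1 to 3 were above every other sample of the series, and only KO replicate 4 was within the range of the WT. The HP1α line held a narrow band, with 87.0, 86.0, 90.4 and 90.8 CPM in KO and 89.1, 92.9, 93.8 and 92.5 CPM in WT.

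For Tet2 the log2 fold change in HP1γ KO was 0.25 (standard error 0.0776, unadjusted p = 0.00831), which missed the adjusted threshold (adjusted p = 0.288 by edgeR with Benjamini-Hochberg adjustment, exact permutation test p = 0.0571). In HP1α KO it was -0.06 (95% interval -0.16 to 0.05). The difference between the knockout effects, HP1α minus HP1γ, was -0.30 (standard error 0.0890, unadjusted p = 0.00375, adjusted p = 0.348 in the fit of all 16 samples). Of the 10 genes, 0 passed the adjusted threshold of this test by edgeR, against 0.0507% of 15776 genes. The unadjusted one was passed by 3, against 9.58%. With DESeq2 these numbers were 0 and 3. Over 8 alternatives without a sample left out, DESeq2 among them, 1110 to 2073 of the genes each tested passed the unadjusted one. Without KO replicate 4 the log2 fold change was 0.31 (adjusted p = 0.147), and the lowest value among the alternatives was 0.18.

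Tet3 (ENSMUSG00000034832, chromosome 6, 83339355 to 83436066, minus strand) and Tet1 (ENSMUSG00000047146, chromosome 10, 62640349 to 62744775, minus strand) did not pass the test on loss of either HP1. Tet3 had 150.2, 155.8, 194.0 and 201.5 CPM in HP1γ KO and 135.5, 150.5, 190.3 and 194.3 CPM in its WT. As for Dnmt1, the samples numbered 1 and 2 were below those numbered 3 and 4 in both genotypes, and across the 16 samples the deviations of Tet3 and Dnmt1 from their group means had a correlation of 0.85, the highest of the 45 pairs among the 10 genes. For Tet3 the log2 fold change was 0.07 (95% interval -0.23 to 0.38) in HP1γ KO and 0.02 (95% interval -0.14 to 0.19) in HP1α KO. Tet1, the rarest of the oxidases, had 10.3, 12.7, 9.07 and 8.47 CPM in the WT of the HP1α line and 5.38, 7.09, 8.24 and 9.24 CPM in the WT of the HP1γ line. These groups overlapped, and their log2 difference was 0.43 (standard error 0.180, unadjusted p = 0.0348, adjusted p = 0.134 by edgeR with Benjamini-Hochberg adjustment).

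**Figure D4:**
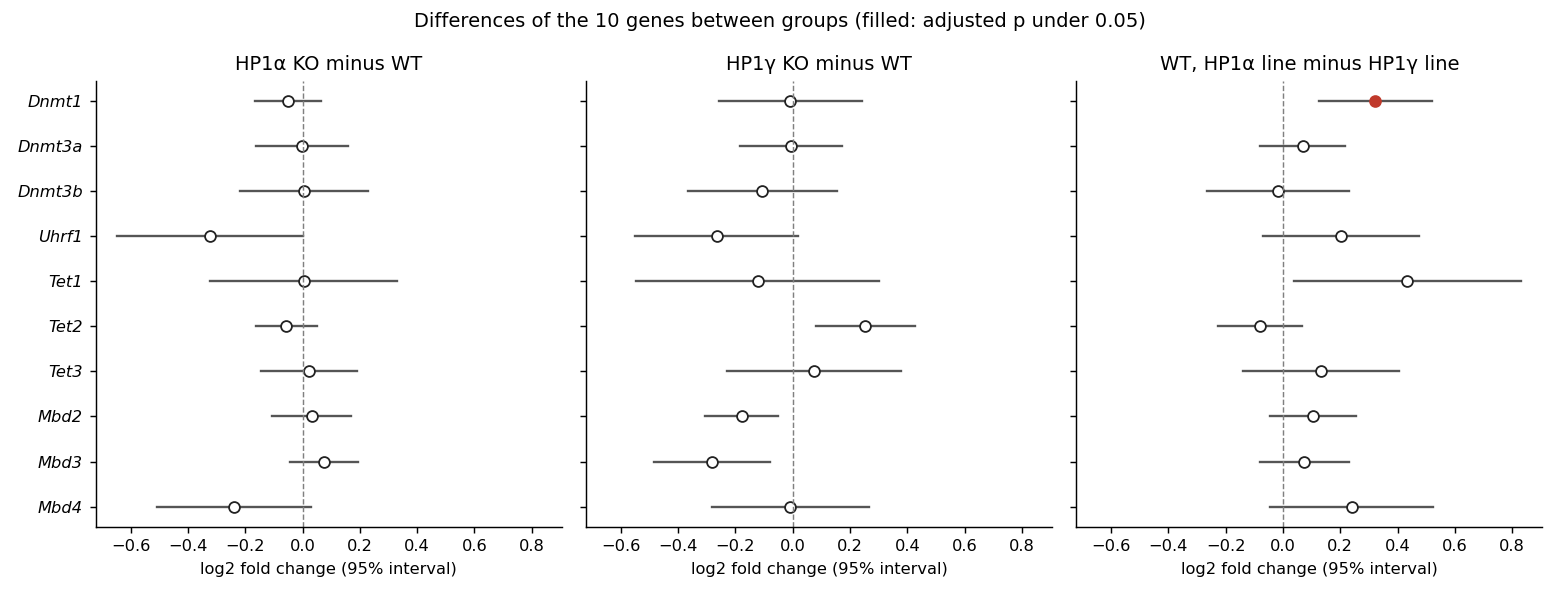
Log2 differences of the 10 genes with 95% intervals from edgeR's quasi-likelihood fit, for HP1α KO minus WT, HP1γ KO minus WT and the WT of the HP1α line minus the WT of the HP1γ line. Filled points passed an adjusted p of 0.05, which was so for Dnmt1 between the WT groups; in HP1γ KO the intervals of Tet2, Mbd2 and Mbd3 leave out 0.

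Mbd2 and Mbd3, which take each other's place as subunits of the NuRD deacetylase and remodelling complex, had lower levels in HP1γ KO than in its WT without passing the adjusted threshold. MBD2 binds methylated CpG, whereas mammalian MBD3 binds it poorly. Mbd2 (ENSMUSG00000024513, chromosome 18, 70701260 to 70762203, plus strand) had 170.9, 168.5, 186.7 and 184.7 CPM in HP1γ KO and 209.1, 202.2, 200.2 and 197.8 CPM in its WT. Mbd3 (ENSMUSG00000035478, chromosome 10, 80225002 to 80235397, minus strand) had 55.0, 63.8, 72.4 and 68.8 CPM in HP1γ KO and 85.3, 73.4, 75.3 and 84.5 CPM in its WT. For both genes the KO samples were all below the WT samples, which was so for 2 of the 10 genes and for 7.1% of all genes tested in either direction (2.96% in the HP1α line, where it held for 0 of 10). In TPM the groups overlapped: Mbd2 reached 215.7 TPM in KO and started at 213.8 TPM in WT, and Mbd3 reached 86.5 TPM in KO and started at 82.1 TPM in WT.

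On loss of HP1γ, the log2 fold change was -0.18 for Mbd2 (standard error 0.0576, unadjusted p = 0.0110, adjusted p = 0.315) and -0.28 for Mbd3 (standard error 0.0911, unadjusted p = 0.0107, adjusted p = 0.313), by edgeR with Benjamini-Hochberg adjustment; in the exact permutation test both had p = 0.0286, the smallest possible. Neither passed the adjusted threshold. In the HP1α line Mbd2 lay between 217.6 and 226.4 CPM in KO and between 201.6 and 238.9 CPM in WT, and Mbd3 between 85.9 and 92.2 CPM in KO and between 79.2 and 86.6 CPM in WT. Their log2 fold changes there were 0.03 (95% interval -0.10 to 0.17) and 0.08 (95% interval -0.04 to 0.19). The difference between the knockout effects was 0.22 for Mbd2 (adjusted p = 0.440) and 0.37 for Mbd3 (adjusted p = 0.348), with unadjusted p of 0.0159 and 0.00370. With each sample left out in turn, Mbd2 stayed between -0.20 and -0.16 and Mbd3 between -0.34 and -0.21 in HP1γ KO. With limma on log2(TPM + 1), the values in HP1γ KO were 0.18 for Tet2, -0.12 for Mbd2 and -0.19 for Mbd3 (unadjusted p = 0.0506, 0.0648 and 0.0506), and those of the difference between knockouts were -0.32, 0.25 and 0.30 (unadjusted p = 0.00720, 0.0259 and 0.0146).

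In the same comparison the 5 B cell markers were all higher in HP1γ KO (median log2 fold change 0.32). So were the 5 myeloid markers (0.39), the 3 erythroid genes (1.502) and the 2 CD8 T cell markers (0.58). Of the 5 T cell markers 4 were lower and 1 higher (median -0.04). The naive and central memory markers were lower in 2 of 2 (-0.10). In each of these lists 0 genes passed the adjusted threshold. The summed CD8 T cell level was 7.66, 7.83, 8.56 and 18.5 CPM in KO and 5.74 to 10.4 CPM in WT. Only KO replicate 4 was above the range of the WT. The summed B cell level was 262.7 to 372.7 CPM in KO and 261.8 to 335.3 CPM in WT, the myeloid level 45.0 to 63.1 and 29.5 to 52.4 CPM, and the erythroid level 51.6 to 737 and 28.8 to 322.9 CPM. The part of all these marker lists in the values of Tet2, Mbd2 and Mbd3 was not tested.

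Mbd4 (ENSMUSG00000030322, chromosome 6, 115817646 to 115830361, minus strand) encodes a glycosylase that removes thymine from the mismatches left by deamination of methylated cytosine. It was at 5.15, 5.44, 5.59 and 4.56 CPM in HP1α KO and at 5.56, 5.92, 6.58 and 6.44 CPM in its WT. KO replicate 3 overlapped the lowest WT sample. The log2 fold change was -0.24 (standard error 0.121, unadjusted p = 0.0740, adjusted p = 0.946 by edgeR with Benjamini-Hochberg adjustment). In the HP1γ line the means were 5.11 ± 0.0738 CPM in KO and 5.18 ± 0.415 CPM in WT (SD, n = 4).

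A further list held Mbd1, Mbd5 and Mbd6, named for a methyl-CpG binding domain, and the zinc finger genes Zbtb33, Zbtb4 and Zbtb38. On loss of HP1γ 1 of these 6 genes passed the adjusted threshold, against 0.327% of all genes. On loss of HP1α 0 of 6 passed it, against 0%. Mbd1, which binds methylated CpG through the same kind of domain as Mbd2, had 131.5, 136.2, 145.5 and 142.7 CPM in HP1γ KO and 66.4, 67.9, 69.1 and 72.1 CPM in its WT. The groups were far apart, and the 8 samples of the HP1α line, between 68.9 and 78.0 CPM, overlapped those of the HP1γ WT. The log2 fold change of Mbd1 was 1.02 (standard error 0.0590, adjusted p = 4.7e-05 by edgeR with Benjamini-Hochberg adjustment), and the difference between the knockout effects was -1.04 (adjusted p = 4.67e-06). Mbd1 thus rose in the group in which Mbd2 and Mbd3 had their lowest values. Mbd1 lies 3.64 Mb from Mbd2 on the same chromosome. Zbtb38, a zinc finger reader, had a log2 fold change of -0.40 there (unadjusted p = 0.00211, adjusted p = 0.183). In HP1α KO the list was led by Zbtb33, which encodes Kaiso (log2 fold change -0.27, unadjusted p = 0.0394, adjusted p = 0.946 by edgeR).

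The partners and cofactors of the 10 genes held few differences between KO and WT. Of 12 further NuRD subunits, 0 passed either threshold by edgeR in either knockout. Over all genes 4.27% passed the unadjusted one in HP1α KO and 11.9% in HP1γ KO. In HP1γ KO 10 of the 12 were lower, at a median log2 fold change of -0.04, beside 7469 of 14975 genes at a median of 0.00. Of 5 tested cofactors of methylation (8 in the list), 0 passed the adjusted threshold in either knockout, and in HP1γ KO Cdca7, an activator of the remodeller HELLS, had a log2 fold change of -0.23 (unadjusted p = 0.0413, adjusted p = 0.401). Of 8 genes of methyl donor supply, 0 passed the adjusted threshold in either knockout. In HP1γ KO 3 passed the unadjusted one, against 11.9% of all genes. Ahcy, which clears S-adenosylhomocysteine, led them (log2 fold change -0.17, unadjusted p = 0.0210, adjusted p = 0.360 by edgeR). Of 20 tested genes of oxidation cofactors and base excision, 0 passed the adjusted threshold in either knockout. In HP1α KO 1 passed the unadjusted one, against 4.27% of all genes. It was the uracil glycosylase Ung (log2 fold change -0.27, unadjusted p = 0.0123, adjusted p = 0.946 by edgeR).

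Between the WT groups 1 of 5 cofactors of methylation, 2 of 8 genes of methyl donor supply and 3 of 20 of oxidation and base excision passed the adjusted threshold. So did 2 of the 6 further Mbd and Zbtb genes and 0 of 12 NuRD subunits, beside 12.8% of all genes in that comparison. Lower in the WT of the HP1α line was Mat2a, which makes S-adenosylmethionine (log2 difference -0.50, adjusted p = 0.00362 by edgeR). Tdg, the glycosylase that removes the products of TET oxidation, was lower too (-0.52, adjusted p = 0.0222). So were Mbd5 (-0.49, adjusted p = 0.00781), Zbtb38 (-0.44, adjusted p = 0.0134) and Usp7, a deubiquitinase that stabilises DNMT1 (-0.24, adjusted p = 0.0411). Higher there were Idh2, which supplies 2-oxoglutarate in mitochondria (0.33, adjusted p = 0.0406), Shmt2 of folate metabolism (0.24, adjusted p = 0.0468) and the repair scaffold Xrcc1 (0.23, adjusted p = 0.0444). Dnmt1 and Usp7 thus differed in opposite directions. Of the 21 division genes 12 were higher and 9 lower in the WT of the HP1α line, at a median log2 difference of 0.03. An unadjusted p under 0.05 by edgeR was reached by 2 higher and 2 lower genes, against 29.9% of all genes. The adjusted threshold was passed by 2 of the 21, against 12.8% of all genes. These were Pcna (-0.33, adjusted p = 0.0191) and Ccne2 (-1.02, adjusted p = 0.00691), both lower in the WT of the HP1α line. Among the T cell markers Cd28 (-0.60, adjusted p = 0.00428) and Cd44 (-0.35, adjusted p = 0.0104) were lower there too, the latter being a marker of the sort.

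Germline genes that promoter methylation keeps silent in somatic cells stayed near 0. The 17 genes of the list, among them Dazl, Ddx4 and Sycp3, summed to between 1.53 and 2.64 CPM per sample, only 2 had enough counts to be tested, and 0 of these passed either threshold by edgeR in any comparison. Between 9 and 11 of the 17 were at 0 in every sample of a group, and at this depth 3 counts, the limit a count of 0 allows, correspond to between 0.0746 and 0.112 CPM. Such limits cover counting error only.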

How the data were processed

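Poly(A) RNA of 16 sorted samples had been read as stranded 150-bp pairs. After trimming, the authors aligned with STAR to GRCm39 and used Salmon for quantification. They deposited estimated counts per gene without normalization (11.6% not whole) and, separately, the deposited TPM. Samples were grouped by the submitters' titles. Treatment labels, which name an experiment with transferred cells, were not used.

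Counts were rounded and tested with edgeR 4.0.16 in R 4.3.3 (TMM, filterByExpr with a minimum count of 10, quasi-likelihood test, Benjamini-Hochberg adjustment over all genes tested), with 8 samples per comparison and 16 for the difference between knockouts. Single values had exact permutation tests, two-sided. The tests were checked on simulated data with changes larger than any seen in the 10 genes. That check does not cover effects as small as theirs. Alternatives were DESeq2 1.42.0, RLE size factors, other filters, a replicate block, a robust fit, all 16 samples in 1 fit, limma 3.58.1 on log2(TPM + 1) and log2(TPM + 0.1), and omission of each sample. All 10 genes were named in each comparison; of the other lists, genes past the adjusted threshold, otherwise that of smallest unadjusted p. Likeness was Pearson correlation of log2 CPM (prior count 2, mean of at least 5 CPM) after subtraction of group means. Shared sequence was searched with blastn 2.17.0, and coordinates are GENCODE's, not the authors' annotation release. The 10 genes and the lists were chosen with earlier results of these data known. Some genes of the marker and reader lists are not reported here and were left out of their lists' values.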

Additional observations from a re-analysis of the deposited data

Results flagged for a closer look

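The effect of the knockouts on Mbd1 differed between the lines: the log2 fold change on loss of HP1α minus that on loss of HP1γ was -1.04 by the interaction test. A sample stood apart from the other 3 of its group in 3 of 56 groups checked, where chance gives about 1 in 20. These were Dnmt3b in HP1γ KO, with replicate 4 highest at 13.9 CPM, Tet2 in HP1γ KO, with replicate 4 lowest at 101.0 CPM, and Tet2 in HP1γ WT, with replicate 3 highest at 106.4 CPM.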

How the results depend on the processing

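The counts of the 10 genes past an adjusted p of 0.05 were 0 under every alternative run in HP1α KO, in HP1γ KO and for the difference between them. Between the WT groups the count of 1 (Dnmt1) went to 0 with limma on TPM (pseudocounts of 1 and of 0.1) and with the replicate block, and lay between 0 and 1 when 1 sample was left out. Under that block the adjusted p of Dnmt1 was 0.0650 and 577 genes were called in all, against 1896 without it; in HP1α KO, HP1γ KO and the difference between them, 0 of the 10 genes passed with the block. The correlations of same-numbered samples lay between 0.0806 and 0.271 in the HP1α line, between -0.00663 and 0.186 in the HP1γ line and between -0.195 and -0.0952 between the WT groups; in none were all 4 over 0.1, and the numbers were not taken as pairs. On TPM the direction turned and the value moved by more than 1 standard error, with no call before or after, for Dnmt3a in HP1α KO (0.108 and 0.110 with the pseudocounts of 1 and 0.1), Dnmt3b in HP1γ KO (0.0180 and 0.0212), Dnmt3a (-0.0736 and -0.0752) and Dnmt3b (0.119 and 0.137) between the WT groups, and Dnmt3b in the difference between knockouts (-0.0750 and -0.0876); Dnmt3b in HP1α KO and Dnmt1, Dnmt3a and Mbd4 in HP1γ KO changed sign within 1 standard error. The cause was not tested. Over all genes the number called ranged from 0 to 5 in HP1α KO (0 in the reported fit), from 17 to 252 in HP1γ KO (49), from 573 to 2823 between the WT groups (1896) and from 3 to 79 for the difference (8). With 4 samples a group, effects within the printed intervals were not resolved.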
